A study of Homo sapiens with 24 samples.

Results

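UBD, ITGAM, LTB, ICAM4, IL4I1, PI3 and MCAM are 7 genes, of 36337 gene names on the array and 20689 genes tested, that TRAIL raised in HT29 cells and that rose less than additively when TRAIL was given with propionate and acetate. They were chosen on these arrays, as the named genes with the most negative departure among the 20 that met the thresholds on both measures. All 7 were tested, each by 1 probe. UBD, ITGAM, LTB and PI3 lay lower in both co-treatments than with TRAIL alone. ICAM4 lay higher in the co-treatments than with TRAIL, IL4I1 lay at or slightly under the TRAIL level, and MCAM was at much the same level under every treatment, so "dampened by co-treatment" describes the levels of 4 of the 7 genes and, for the other 3, only the comparison with the sum of the single treatments. For ICAM4 that comparison was negative on the log2 scale and positive on the linear one.

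HT29 is an established human colon adenocarcinoma line. Untreated cells (NT) were compared with cells given, over 6 h, C3/C2 (propionate at 30 mM and acetate at 15 mM), SN (a culture supernatant of dairy propionibacteria, diluted 1/2), TRAIL (at 100 ng/ml, with the anti-Flag M2 antibody at 2 µg/ml), TRAIL+C3/C2 or TRAIL+SN. Each of the 6 groups had 4 arrays, 24 in all. The antibody was given wherever TRAIL was given and nowhere else, so their effects cannot be told apart. The study describes 2 independent experiments, each run in duplicate, without saying which replicate numbers share an experiment. The p-values treat the 4 arrays of a group as independent. They measure only the spread between these arrays, part of which may be technical.

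TRAIL is a ligand of the TNF family. Its death receptors start caspase activation, and they can also activate NF-κB, a family of transcription factors that drives cytokine, adhesion and survival genes. Propionate and acetate are short chain fatty acids made by gut and dairy bacteria, and propionate is known to inhibit histone deacetylases. Among the 7 genes, UBD (also called FAT10) is a ubiquitin-like modifier that marks proteins for the proteasome, LTB (lymphotoxin beta) anchors a ligand of the TNF family in the membrane, IL4I1 is a secreted L-amino acid oxidase and PI3 (elafin) inhibits neutrophil elastase. ITGAM (CD11b) is the alpha chain of a leukocyte integrin, ICAM4 is an immunoglobulin-superfamily adhesion molecule of red cells, and MCAM (CD146) is another such adhesion molecule, known from endothelium and melanoma.

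The arrays were Agilent 8x60K arrays hybridised with Cy3-labelled RNA. A level below is the log2 intensity of a gene's probe minus the 75th percentile of its array. "Well above background" is the scanner software's own call. Between 49.8% and 57.8% of probes were well above background on an array, no spot was saturated, and arrays of a group correlated with each other at 0.993 to 0.998. The 75th percentile of intensity was 745 to 1010 in NT and 453 to 518 in TRAIL+C3/C2. Slide 3 held all SN and TRAIL arrays and slide 4 all co-treatment arrays, while NT and C3/C2 shared slides 1 and 2, so slide and treatment cannot be told apart for TRAIL or SN against NT, for a co-treatment against a single treatment, or in the departures that rest on them. All 10 colon epithelial markers, EPCAM, KRT20 and CDX2 among them, were well above background on all 24 arrays.

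The probes lie, on hg19 as the files give it, at chr6:29523477-29523536 for UBD, chr16:31343816-31343875 for ITGAM and chr6:31548335-31548394 for LTB. Those of ICAM4, IL4I1, PI3 and MCAM lie at chr19:10399139-10399198, chr19:50392917-50392976, chr20:43804645-43804704 and chr11:119180002-119180061. All are 60 bases long. ITGAM is spotted 10 times on each array and the other 6 genes once. The probe of PI3 lies in the coding sequence and is shown because the PI3 results rest on it alone.
PI3: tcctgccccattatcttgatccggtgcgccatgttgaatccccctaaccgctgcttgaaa

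NF-κB acts through a short site near gene starts, and RefSeq promoter windows (GRCh38.p14, 250 bases before to 50 after a start) were searched on both strands for its consensus, for the AP-1 site TGANTCA and for the STAT site TTCNNNGAA. Windows were given for 6 of the 7 genes, and LTB had overlapping ones. A gene was counted if any of its windows held a match, whereas the shares are of single windows, so the units differ. The NF-κB consensus was in those of UBD, LTB, ICAM4 and MCAM, 4 of 6, against 11.3% of all 35116 windows. TGANTCA was in 0 of 6, against 7.71% of all windows, and TTCNNNGAA in that of LTB only, against 7.66%. The match in MCAM lies after the start, and LTB holds a second one there. The other 3 matches are shown in capitals with the bases around them, read in the direction of the gene, because these 3 genes differ in how they responded. They lie at positions −53 to −44 of UBD (chr6:29559746-29559815, minus strand), −86 to −77 of LTB (chr6:31582472-31582541, minus strand) and −57 to −48 of ICAM4 (chr19:10286868-10286937, plus strand). A match is a description of these letters, and binding was not measured.
UBD: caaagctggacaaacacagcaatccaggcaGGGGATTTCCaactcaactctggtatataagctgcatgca
LTB: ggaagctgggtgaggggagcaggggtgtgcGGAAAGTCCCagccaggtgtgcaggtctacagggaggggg
ICAM4: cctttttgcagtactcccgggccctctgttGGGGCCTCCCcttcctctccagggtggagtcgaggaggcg

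TRAIL against NT and the departure of TRAIL+C3/C2 from the sum chose the genes, so these values are given without a test. A departure is the co-treated difference from NT minus the sum of the differences made by TRAIL and by the other agent. Of all genes tested, 0.749% were called higher with TRAIL (155 genes, called where the fold change reached 2 with an adjusted p under 0.05). A negative departure was called for 0.164% of genes with C3/C2 and 0.334% with SN, and a positive one for 0.498% and 2.76%. MCAM, the gene just inside, had a departure of −1.58, and ICAM2, the next named gene, −1.46. The comparison of TRAIL+SN with SN used none of the arrays that chose the genes, and it alone carries a p for them. Its SN arrays shared slide 3 with TRAIL, and its TRAIL+SN arrays shared slide 4 with TRAIL+C3/C2. A difference between slides would thus enter both this comparison and the departures. The spread behind the p was estimated over all groups.

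UBD responded strongly to TRAIL and was at the background of the array without it. Its TRAIL minus NT difference was the largest of the 7 as fitted, 7.01 on the log2 scale, but lay under that of IL4I1 with the normexp background correction (3.71 against 4.41). Its levels with TRAIL were −0.43, −0.46, 0.21 and −0.01, an intensity of 491 to 728. Its levels were −7.86, −7.78, −7.52 and −5.55 in NT, −7.98, −7.86, −7.14 and −7.88 with C3/C2, and −7.68, −7.08, −6.05 and −7.58 with SN. None of those 12 arrays was well above background, so UBD was at least 46.6-fold higher with TRAIL than in NT. Such bounds set the bright group, on each dim array, against the lowest signal of any probe well above background there. Where the gene's own signal was higher, that was used. The bounds hold for this background subtraction only.

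In the co-treatments UBD returned most of the way to the background. Its levels were −5.60, −4.84, −5.45 and −6.08 with TRAIL+C3/C2, where 1 array of 4 was well above background, and −6.74, −5.58, −7.40 and −7.35 with TRAIL+SN, where none was. No co-treated array came near the lowest TRAIL array. UBD was at least 28.3-fold lower with TRAIL+C3/C2 than with TRAIL and at least 31.9-fold lower with TRAIL+SN. Under normexp these differences were −2.83 and −3.07 on the log2 scale. In bulk RNA, fewer cells making a transcript and less transcript per cell cannot be told apart. TRAIL+SN differed from SN by 0.33 ± 0.47 (log2, SE, 95% interval −0.65 to 1.31, limma adjusted p = 0.679), with both groups at background. The fitted departures, −4.78 with C3/C2 and −6.68 with SN, include these background values.

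ITGAM was low but measurable in most arrays and, as fitted, lost its whole TRAIL response in the co-treatments. Its levels were −1.58, −1.67, −1.96 and −1.66 with TRAIL. They were −4.02, −4.16, −4.16 and −3.89 in NT, −4.11, −4.24, −4.43 and −4.34 with C3/C2, and −4.38, −4.61, −4.67 and −4.53 with SN. TRAIL alone set ITGAM 2.33 ± 0.10 (log2, SE) above NT, 5.05-fold, with a wide gap between the groups.

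With TRAIL+C3/C2 the ITGAM levels were −4.70, −4.62, −4.89 and −4.94, and with TRAIL+SN −4.70, −4.82, −4.53 and −4.75. Every co-treated array lay below every NT array, although TRAIL+C3/C2 lay 0.22 above NT under normexp. ITGAM was 8.38-fold lower with TRAIL+C3/C2 than with TRAIL, and 7.89-fold lower with TRAIL+SN. With C3/C2 present, adding TRAIL gave −0.51 ± 0.10, but 0.30 under normexp. With SN present it gave −0.15 ± 0.10 (95% interval −0.36 to 0.05, limma adjusted p = 0.301). Under normexp it gave 0.26 with SN present (limma adjusted p = 0.00278), which is under the fold of 2. At these levels the intensity of the probe was 15.3 to 20.9 with TRAIL+C3/C2 and 45.9 to 57.6 in NT. The departures were −2.84 with C3/C2 and −2.49 with SN.

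The repeated spots show how well the array separates these values. The SD between ITGAM spots of an array had a median of 0.226 and ran from 0.0746 to 0.573. Single spots ran from −2.22 to −1.46 with TRAIL, from −4.54 to −3.41 in NT, from −5.59 to −3.78 with TRAIL+C3/C2 and from −5.50 to −4.16 with TRAIL+SN. No spot of a TRAIL array fell within the range of another group, whereas the spots of NT and of the co-treatments overlapped.

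**Figure D1:**
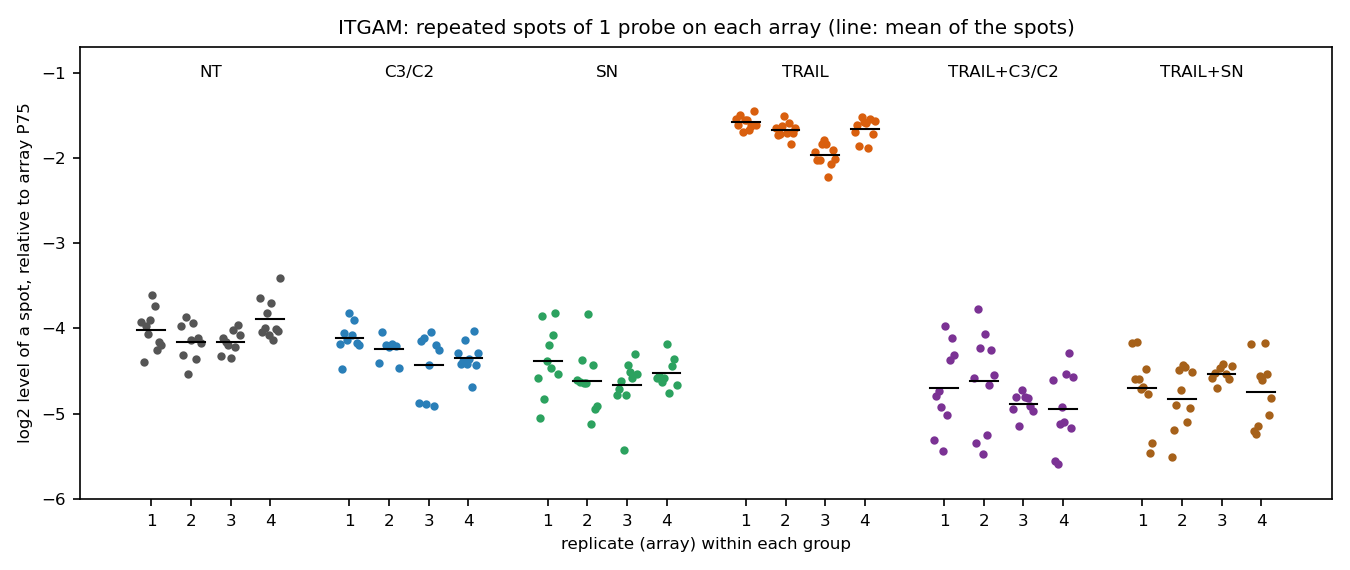
Log2 level of each ITGAM spot, relative to the 75th percentile of its array (vertical axis), on each of the 24 arrays (horizontal axis, 4 replicates per group), with a line at the mean of an array's spots. The TRAIL spots, from −2.22 to −1.46, stand above all others, and the spots of the co-treatments overlap with those of NT.

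ITGAM is known from myeloid cells, so leukocyte markers were examined beside it. Of 9 markers, PTPRC, CD14, SPI1 and ITGB2 were well above background on all 24 arrays and MS4A1 and CD53 on none. The mean level of the 5 tested was −3.58 to −3.30 in NT, −3.61 to −3.44 with TRAIL, −2.99 to −2.71 with C3/C2, −2.95 to −2.64 with TRAIL+C3/C2, −2.85 to −2.66 with SN and −2.92 to −2.66 with TRAIL+SN. CSF1R was called higher with C3/C2, and CD14 and CSF1R with SN, where 13.5% and 14.3% of all genes were. The mean moved mostly with these genes, since PTPRC, SPI1 and ITGB2 differed from NT by −0.12, −0.13 and −0.11 with SN, and CSF1R was well above background on none of the NT or TRAIL arrays. Between TRAIL and NT the 5 differed by a median of −0.05, and none passed an unadjusted p of 0.05. All cultures were of the HT29 line, so these values are marker transcripts in that line and not a measure of leukocytes. Why ITGAM and some of these markers were measurable there was not tested. ITGB2, the beta chain that pairs with ITGAM, differed by 0.02 ± 0.12 between TRAIL and NT (limma adjusted p = 0.928) and by 0.23 ± 0.12 between TRAIL+SN and SN (adjusted p = 0.19).

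LTB kept part of its TRAIL response in both co-treatments. Its levels with TRAIL were 0.27, 0.56, 0.60 and 0.69. They were −4.69, −4.57, −5.12 and −4.96 in NT and −4.76, −5.03, −4.42 and −4.29 with C3/C2. With SN they were −6.56, −6.08, −5.52 and −6.57, none well above background. TRAIL alone made LTB 41.2-fold higher than NT, NT and C3/C2 overlapped, and LTB was at least 1.71-fold lower with SN than in NT. Within slides, C3/C2 minus NT was −0.07 on slide 1 and 0.30 on slide 2 for LTB.

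With TRAIL+C3/C2 the LTB levels were −2.11, −2.30, −1.91 and −2.10, and with TRAIL+SN −4.17, −4.15, −3.82 and −3.67. The 3 groups that received TRAIL did not overlap, with TRAIL highest and TRAIL+SN lowest. LTB was 6.2-fold lower with TRAIL+C3/C2 than with TRAIL, and 22.3-fold lower with TRAIL+SN. Adding TRAIL raised LTB by 2.52 ± 0.20 in the presence of C3/C2. In the presence of SN it rose by 2.23 ± 0.20 (limma adjusted p = 1.63e-07), at least 3.15-fold, and this call was lost under the normexp background correction (0.81, adjusted p = 5.08e-07), where the change was under the fold of 2. The departures were −2.84 and −3.13.

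PI3 was bright in every group and kept a smaller response. Its levels with TRAIL were 2.43, 2.48, 2.89 and 2.82. They were −0.30, −0.33, −0.48 and −0.10 in NT, −0.08, −0.34, −0.03 and 0.04 with C3/C2, and −0.07, 0.04, −0.05 and −0.07 with SN. The acids and the supernatant alone thus left PI3 within 0.26 of NT, and TRAIL alone made it 7.77-fold higher.

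With TRAIL+C3/C2 the PI3 levels were 1.17, 1.15, 1.21 and 1.26, and with TRAIL+SN 0.62, 0.51, 0.76 and 0.76. Both groups lay between NT and TRAIL without overlap, TRAIL+SN below TRAIL+C3/C2. The response to TRAIL was 2.96 ± 0.10 without other agents, 1.30 ± 0.10 with C3/C2 and 0.70 ± 0.10 with SN (95% interval 0.49 to 0.91, limma adjusted p = 6.85e-05). The last is 1.62-fold and under the fold of 2, so PI3 is not counted as called there. The departures were −1.66 with C3/C2 and −2.26 with SN.

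ICAM4 responded to every agent and was highest in the co-treatments. Its levels were −6.57, −6.04, −5.32 and −5.91 in NT, where 1 array of 4 was well above background. They were −1.10, −1.38, −1.22 and −1.22 with C3/C2, −2.29, −2.10, −2.24 and −2.16 with SN, and −2.20, −2.09, −1.47 and −1.13 with TRAIL. C3/C2 alone made ICAM4 at least 21-fold higher than NT and TRAIL at least 14.9-fold, with a smaller bound for SN. Under normexp the differences from NT were 2.46 with C3/C2, 1.73 with SN and 2.10 with TRAIL, on the log2 scale. The TRAIL arrays overlapped with those of C3/C2 and of SN. Within slides, C3/C2 minus NT was 5.47 on slide 1, with 1 array each, and 4.48 on slide 2.

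With TRAIL+C3/C2 the ICAM4 levels were 0.49, 0.56, 1.00 and 0.92, and with TRAIL+SN 0.51, 0.50, 0.39 and 0.51. All 8 lay above all arrays of the single treatments, and the co-treatments overlapped. ICAM4 was 5.53-fold higher with TRAIL+C3/C2 than with TRAIL and 4.6-fold higher with TRAIL+SN. Adding TRAIL in the presence of SN raised ICAM4 by 2.68 ± 0.22 (log2, SE, 6.4-fold, limma adjusted p = 2.56e-08).

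The negative departure of ICAM4 depends on the scale. On log2 values it was −2.26 ± 0.30 with C3/C2 and −1.56 ± 0.30 with SN. On linear intensities relative to the 75th percentile, TRAIL+C3/C2 was 1.69 against a sum of 0.727, a departure of 0.966 ± 0.160 above the sum, and TRAIL+SN was 1.39 against 0.518, a departure of 0.876 ± 0.0628. Under the normexp background correction, which raises the floor of dim probes such as ICAM4 in NT, the log2 departures were −0.31 and 0.15. For the other 6 genes the linear departures were negative in both co-treatments, that of IL4I1 with C3/C2 being −0.725 ± 0.475.

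IL4I1 responded to the acids and the supernatant and more to TRAIL. Its levels were −2.07, −2.31, −2.59 and −2.34 in NT, −0.05, −0.27, 0.01 and −0.04 with C3/C2, and −0.55, −0.55, −0.73 and −0.67 with SN. They were 2.40, 2.54, 2.46 and 2.53 with TRAIL. These 4 groups did not overlap. IL4I1 was 4.72-fold higher with C3/C2 than in NT, 3.25-fold with SN and 28.0-fold with TRAIL. Within slides 1 and 2, C3/C2 minus NT was 2.01 and 2.31.

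With TRAIL+C3/C2 the IL4I1 levels were 2.68, 2.67, 2.24 and 2.30, on both sides of the TRAIL arrays, and with TRAIL+SN 2.33, 2.24, 1.95 and 1.98, all below them. TRAIL+C3/C2 minus TRAIL was −0.01 ± 0.11, but −0.46 when arrays were centred on their median. TRAIL+SN minus TRAIL was −0.36 ± 0.11. Adding TRAIL in the presence of SN raised IL4I1 by 2.75 ± 0.11 (6.74-fold, limma adjusted p = 3.96e-13). The departures were −2.25 with C3/C2 and −2.06 with SN. NUP62, a nuclear pore gene that shares the IL4I1 locus, differed from NT by 0.23 ± 0.06 with TRAIL (limma adjusted p = 0.00324), which is under the fold of 2.

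MCAM reached about the same level whichever agent was given. Its levels were −0.51, −0.38, −0.71 and −0.55 in NT. They were 1.42, 1.32, 1.23 and 1.26 with C3/C2, 1.56, 1.68, 1.36 and 1.33 with SN, and 1.25, 1.42, 1.23 and 1.31 with TRAIL. With TRAIL+C3/C2 they were 1.72, 1.77, 1.42 and 1.35, and with TRAIL+SN 1.61, 1.35, 1.18 and 1.09. All 20 treated arrays lay above all NT arrays, and the 5 treated groups overlapped with one another. MCAM was 3.59-fold higher with C3/C2 than in NT, 4.05-fold with SN and 3.58-fold with TRAIL. Within slides 1 and 2, C3/C2 minus NT was 1.93 and 1.81.

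The MCAM levels with TRAIL added were close to those without it. TRAIL+C3/C2 minus TRAIL was 0.26 ± 0.11, which became −0.18 when arrays were centred on their median. In the presence of SN, TRAIL gave −0.18 ± 0.11 (95% interval −0.41 to 0.06, limma adjusted p = 0.3). The departures, −1.58 with C3/C2 and −2.02 with SN, are thus close in size to the response to 1 agent. Of 6 endothelial markers, PECAM1, CDH5 and VWF were well above background on all 24 arrays and KDR and ERG on none. The mean level of the 4 tested was −4.27 to −4.0 in NT, −3.56 to −3.36 with C3/C2, −4.19 to −3.84 with SN and −4.85 to −4.30 with TRAIL. The 4 did not move together. PECAM1 and TEK were called higher with C3/C2 and PECAM1 with SN, where 13.5% and 14.3% of all genes were. With TRAIL, PECAM1 differed from NT by 0.85 ± 0.18 (limma adjusted p = 0.00111), under the fold of 2, and TEK by −1.85 ± 0.44 (adjusted p = 0.00287), with no TRAIL array well above background for TEK. These too are transcripts in the HT29 line and not a measure of endothelial cells. Their relation to the MCAM values was not tested.

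**Figure D2:**
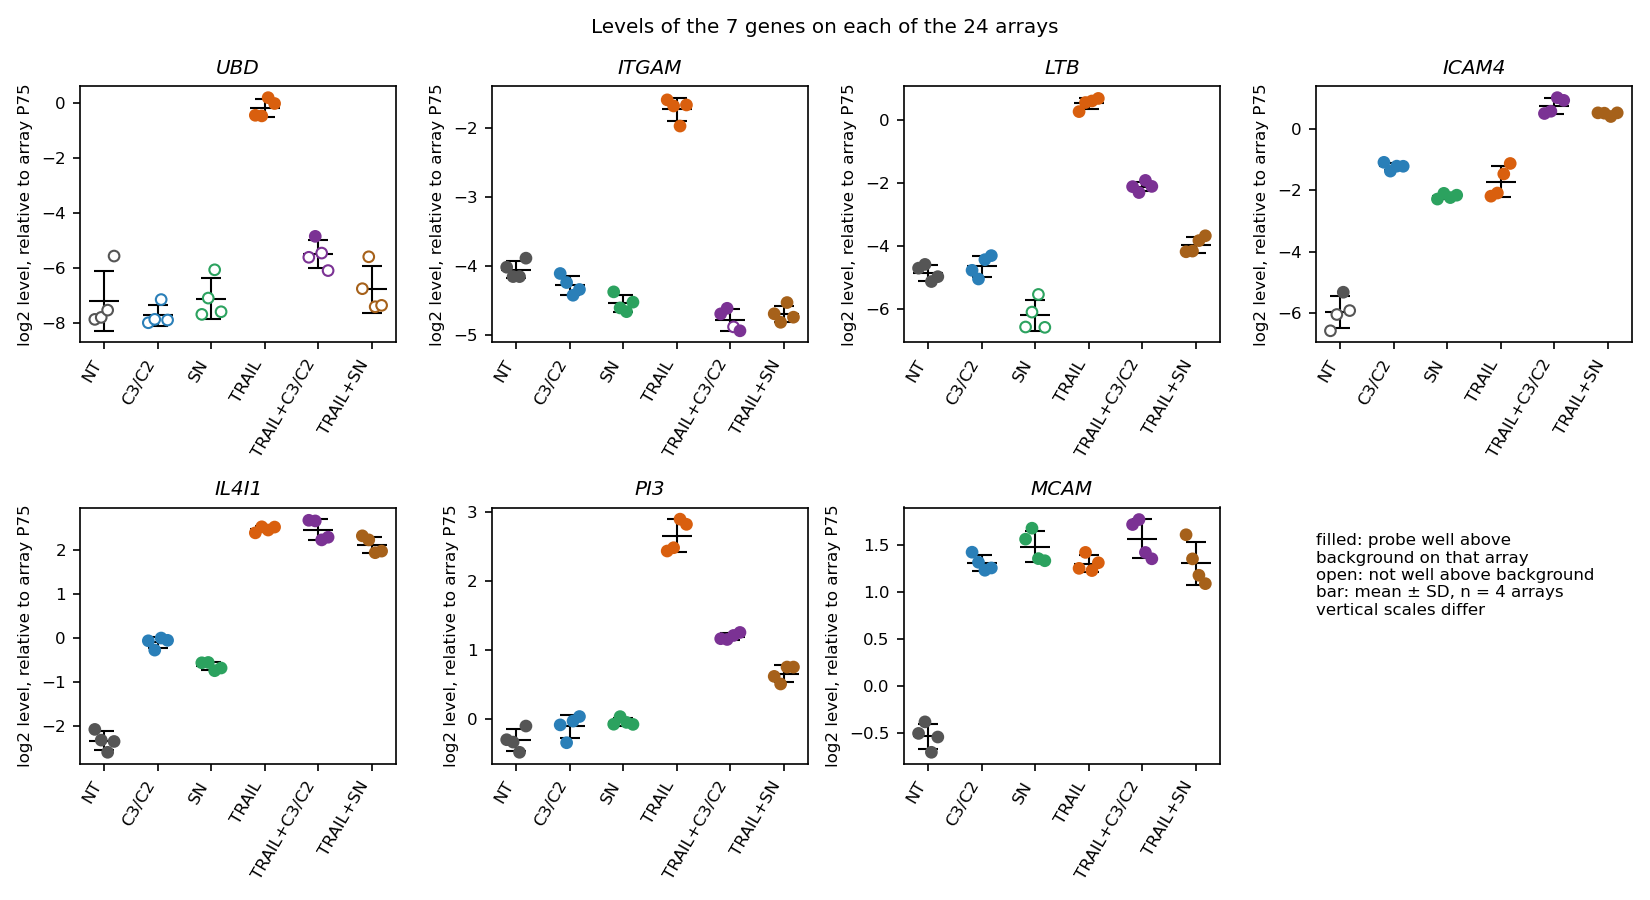
Log2 level of each gene minus the array's 75th percentile (vertical axes, scales differ) on the 4 arrays of each group (horizontal axis), with the mean ± SD; open points were not well above background. UBD, ITGAM, LTB and PI3 are highest with TRAIL alone, ICAM4 is highest in both co-treatments, and MCAM is at a similar level in all 5 treated groups.

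**Figure D3:**
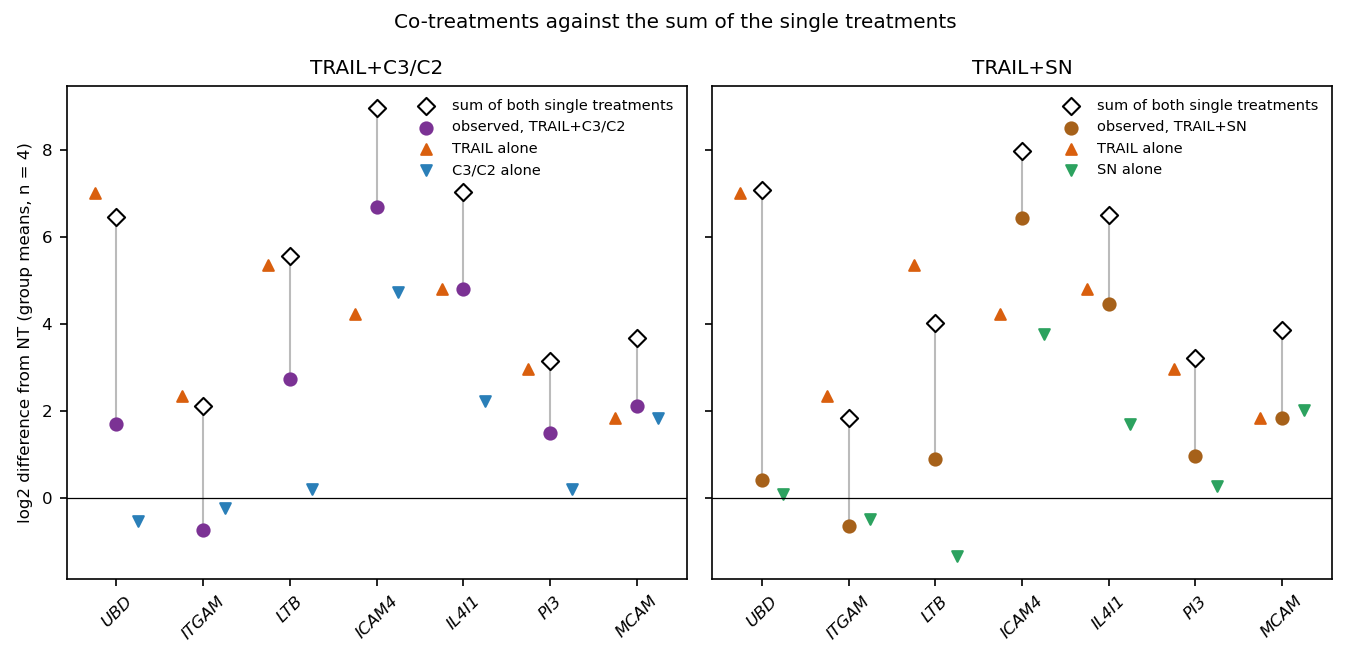
Log2 difference from NT (vertical axis) of each gene (horizontal axis) for TRAIL alone, the other agent alone, their sum and the observed co-treatment, for TRAIL+C3/C2 (left) and TRAIL+SN (right), from group means of 4 arrays. Every observed point lies below its sum on this log2 scale, with departures from −6.68 (UBD with SN) to −1.56 (ICAM4 with SN), and for ICAM4 and MCAM much of the sum comes from the other agent.

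In TRAIL+SN against SN, 3 of the 7 genes were called higher, LTB, ICAM4 and IL4I1, and none lower by limma. The 3 are 42.9%, against 0.909% of all genes tested called higher (188 genes) and 0.164% called lower (34). At an unadjusted p under 0.05 and any fold, 4 of the 7 were higher and 0 lower, against 18.9% and 13.7% of all genes. Quantile normalization gave 151 higher and 64 lower over all genes, and normexp 71 and 0. Of the 148 other genes higher with TRAIL, 36.5% were called higher with TRAIL+SN against SN, and 3 of the 13 other genes that met both thresholds. The exact two-sided permutation test of 4 against 4 arrays, run for the 7 genes, gave p = 0.0286, the smallest it allows, for LTB, ICAM4, IL4I1 and PI3. It gave exact p = 0.543 for UBD, 0.114 for ITGAM and 0.286 for MCAM, whose groups overlapped.

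The median response to TRAIL of the 7 genes was 4.24 without other agents, 1.97 with C3/C2 and 0.70 with SN. The first 2 are fixed by the choice of genes, since the departure that chose them is the second response minus the first. Over the 148 other genes higher with TRAIL the medians were 1.28, 0.99 and 0.69, and over all genes 0.03, 0.03 and 0.02. With SN the responses of the 7 ran from −0.18 for MCAM to 2.75 for IL4I1 and 2.68 for ICAM4.

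**Figure D4:**
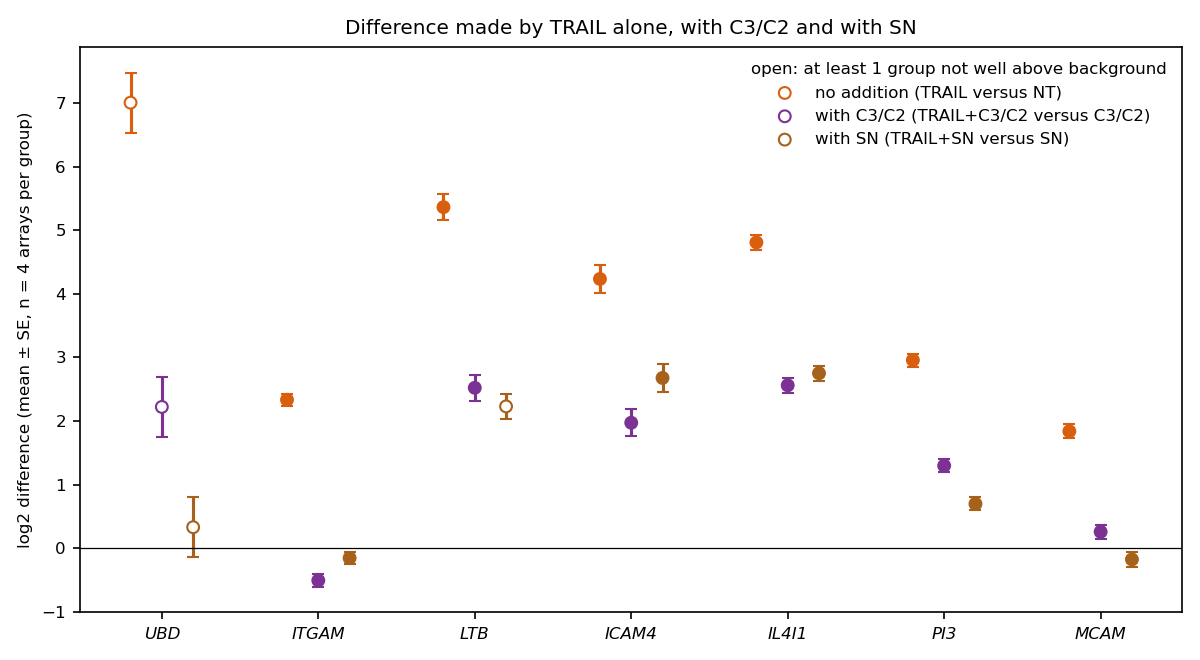
Log2 difference made by TRAIL (vertical axis, mean ± SE, 4 arrays per group) for each gene (horizontal axis) without other agents, with C3/C2 and with SN; open points have a group that was not well above background. ITGAM falls from 2.33 to below 0, whereas LTB, ICAM4 and IL4I1 stay near 2 or higher with either agent.

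**Figure D5:**
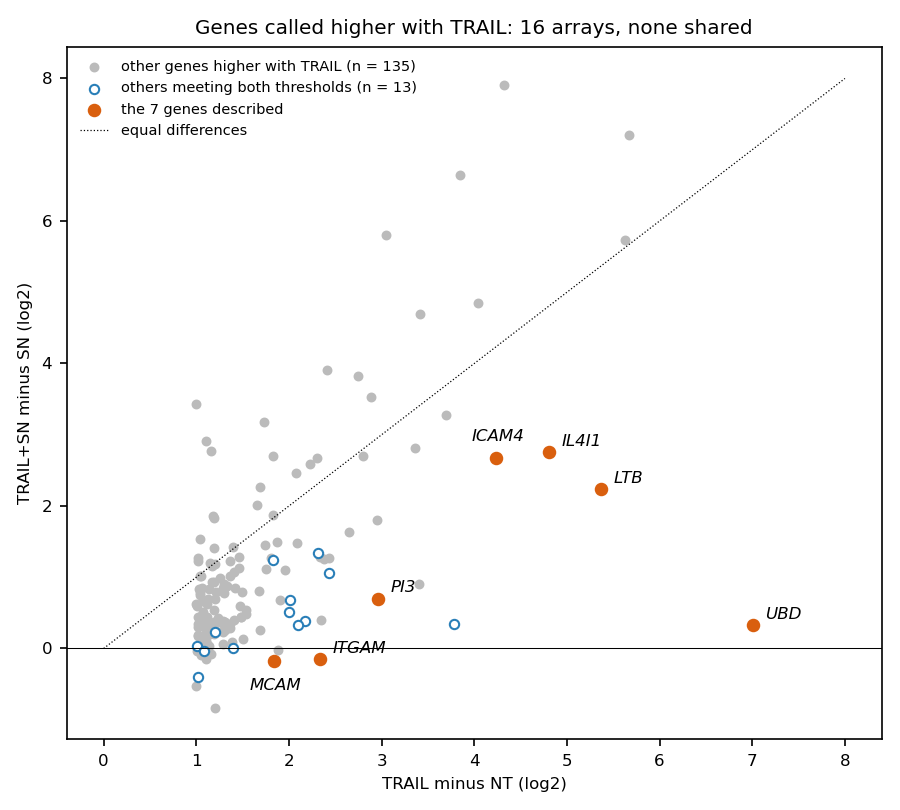
TRAIL minus NT (horizontal axis, log2) against TRAIL+SN minus SN (vertical axis, log2) for the 155 genes called higher with TRAIL; the dotted line marks equal differences. All 7 genes lie below the line, as their choice favours, with UBD, ITGAM and MCAM near 0 on the vertical axis and many grey points above the line.

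Genes of the pathways around the 7 were examined as lists without them. Of 26 tested NF-κB targets and feedback genes, 18 were called higher with TRAIL against NT, 20 with TRAIL+C3/C2 against C3/C2 and 21 with TRAIL+SN against SN, against 0.749%, 1.6% and 0.909% of all genes. None was called lower by limma, nor at an unadjusted p under 0.05 and any fold, which 17.1%, 18.2% and 13.7% of all genes passed. Their medians were 2.27, 2.12 and 2.30. In the last comparison, which the choice of genes did not use, the median of the 7 was 0.70. That of the 148 other genes higher with TRAIL was 0.69, so a median under that of the list is not particular to the 7. The list was itself chosen with earlier results of these data known, so its counts and medians are a description. ICAM1, an adhesion molecule and NF-κB target, rose by 2.41 ± 0.10, 4.01 ± 0.10 and 3.91 ± 0.10 in these comparisons (limma adjusted p = 1.88e-13, 4.36e-17 and 4.74e-17). RELB, an NF-κB subunit, rose by 2.95 ± 0.08, 2.24 ± 0.08 and 1.80 ± 0.08 (adjusted p = 1.11e-16, 7.83e-15 and 4.07e-13). IL8, a neutrophil chemokine, was well above background on the 12 arrays with TRAIL and on no other.

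In the lymphotoxin system, 3 of 11 tested genes (TNF, RELB and NFKB2) were called higher in each of the 3 comparisons. TNF rose by 6.59 ± 0.24 with TRAIL+C3/C2 against C3/C2 and by 5.74 ± 0.24 with TRAIL+SN against SN (limma adjusted p = 3.99e-14 and 5.3e-13). No NT array measured it well above background. LTBR, the receptor of the LTB ligand, differed by 0.17 ± 0.05 between TRAIL and NT and by 0.05 ± 0.05 between TRAIL+SN and SN (adjusted p = 0.0156 and 0.537). LTA, which forms that ligand with LTB, was well above background on none of the 24 arrays and was not tested.

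Around UBD, 0 of 17 ubiquitin-like modifiers and their enzymes were called with TRAIL or with TRAIL+SN against SN by limma, and 1, SQSTM1, rose with TRAIL+C3/C2 against C3/C2. At an unadjusted p under 0.05 and any fold, 8 were higher and 1 lower with TRAIL, and 2 higher and 1 lower with TRAIL+SN against SN. Of all genes 25.4% were higher and 17.1% lower at that threshold with TRAIL, and 18.9% and 13.7% with TRAIL+SN, so that 2 of 17 is no more than over all genes. UBA6 and UBE2Z, the enzymes that activate and carry the UBD protein, differed by 0.28 ± 0.08 and −0.13 ± 0.05 between TRAIL and NT (limma adjusted p = 0.0105 and 0.034). NUB1, which binds UBD, rose against NT by 1.15 ± 0.06 with C3/C2 and 1.17 ± 0.06 with SN (adjusted p = 9.49e-13 and 6.09e-13). UBE2Z differed from NT by −0.72 ± 0.05 with C3/C2 and −1.33 ± 0.05 with SN (limma adjusted p = 1.05e-11 and 4.79e-16). Only the second was called lower, and UBA6 stayed under the fold of 2 in both. Of 18 antigen processing and interferon-inducible genes, TAP1, IRF1 and CXCL10 rose with TRAIL and IRF1 alone with TRAIL+SN against SN. IRF1, a transcription factor, rose by 1.04 ± 0.10 and 1.02 ± 0.10 there (adjusted p = 8.01e-08 and 2.86e-07). These values lie near the fold of 2, and the call with SN was lost, leaving 0 of 18, without SN replicate 3 or 4, without TRAIL+SN replicate 1 or 2, with arrays centred on their median and with normexp.

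Of 13 integrins and their ligands, ICAM1 and ICAM2 rose and ITGA2 fell with TRAIL (2.18% of all genes were called lower), and ICAM1 rose with TRAIL+SN against SN. None of 11 other immunoglobulin-superfamily adhesion molecules, of 6 amino acid oxidases and tryptophan enzymes, or of the 4 endothelial markers tested was called in TRAIL+SN against SN by limma. At an unadjusted p under 0.05 and any fold, 4 of these adhesion molecules were lower, and 1 of the enzymes and 1 of the endothelial markers higher, where 13.7% of all genes were lower and 18.9% higher. Of 12 genes for WFDC inhibitors and epithelial antimicrobial proteins, PIGR rose with TRAIL and C3, the complement component, with TRAIL+SN against SN (2.28 ± 0.21, limma adjusted p = 1.53e-07). SLPI, an elastase inhibitor related to PI3, differed by 0.35 ± 0.25 and 0.00 ± 0.25 in these comparisons (adjusted p = 0.306 and 0.997).

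The genes with the pattern most like each of the 7 over the 24 arrays were found by Pearson's r, which here mostly reflects the shared group means and slides and carries no p. For UBD they were PI3 (0.93), BOK (0.91) and IL2RG (0.90), for LTB TRIB2 (0.97), PI3 (0.95) and FBRS (0.93), and for PI3 LTB (0.95), UBD (0.93) and TRIB2 (0.91). ITGAM was most like LCN2 (0.95), PTPN23 (0.91) and DDX11 (0.91). ICAM4 was most like NINJ1 (0.97), GPR37L1 (0.96) and MYADM (0.95). IL4I1 was most like TNIP1 (0.95), TRAF2 (0.94) and RELB (0.94), and MCAM most like ITGAV, DDX11L9 and DRAM1 (0.94, 0.94 and 0.93). Among the 7, UBD, ITGAM, LTB and PI3 correlated with each other at 0.73 to 0.95, and ICAM4, IL4I1 and MCAM at 0.72 to 0.85. These sets were not separate, since IL4I1 gave 0.79 with PI3, 0.73 with LTB, 0.575 with UBD and 0.24 with ITGAM. ITGAM and ICAM4 gave −0.23.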

How the data were processed

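Expression was measured in HT29 cells, 6 groups of 4 arrays. The authors labelled RNA with Cy3, hybridised it to Agilent arrays and extracted spots with Agilent Feature Extraction 10.7.3.1; the deposited intensity is, per the file headers, background-subtracted and not normalized between arrays. For their own analysis the authors used Rosetta Resolver with a fold change of 2. The deposited table of the whole series was not used here.

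Control spots and 190 to 315 outlier spots per array were left out, spots of a probe were averaged as log2, and the 75th percentile of each array was subtracted. A probe was kept (27957 of 50599) if some group had all 4 arrays well above background, and the brightest kept probe on average stood for its gene, giving 20689 genes. One linear model of 6 group means was fitted with limma 3.58.1 in R 4.3.3 (18 residual degrees of freedom, median SE of a difference 0.108), with Benjamini-Hochberg adjustment over all genes. The number of arrays limits the precision. Calls needed a fold change of 2 and an adjusted p under 0.05. The fit was tested on simulated data.

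The 7 genes and all lists were chosen with earlier results of these data known. Named besides the 7 were partners of the genes, the gene of each list with the largest called change in TRAIL+SN against SN, the 3 genes most correlated with each of the 7, the genes at the edge of the choice and, named after their values were seen, genes from list counts of 5 or fewer. Symbols of all 7 matched the RefSeq table, and 6 probe accessions did. Some genes are not reported here. Alternatives were array median, quantile and normexp (offset 50) processing, other filters, probe means, blocks, arrays left out in turn and, added after seeing the data, the linear scale. Figures were drawn with matplotlib.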

Additional observations from a re-analysis of the deposited data

Results flagged for a closer look

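In 3 of the 42 sets of 4 arrays examined for the 7 genes, 1 array lay far from the other 3 by Dixon's test, which chance does in about 1 of 20 sets. UBD in NT replicate 4 was at −5.55 against −7.86 to −7.52, and UBD in C3/C2 replicate 3 at −7.14 against −7.98 to −7.86, both in groups not well above background. ICAM4 in TRAIL+SN replicate 3 was at 0.39 against 0.50 to 0.51. Without NT replicate 4, UBD with TRAIL minus NT was 7.55 in place of 7.01.

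ITGAM with TRAIL+C3/C2 minus C3/C2 was −0.51, against 2.33 for TRAIL minus NT. Every TRAIL+C3/C2 array lay below every C3/C2 array, whereas every TRAIL array lay above every NT array. The difference was not tested because it chose the gene, and TRAIL+C3/C2 minus C3/C2 was 0.30 under normexp.

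Among the other genes named, several departed from the sum of the single treatments (limma adjusted p). ICAM1 lay above it by 1.60 with C3/C2 (adjusted p = 3.24e-07) and by 1.5 with SN (6.7e-07). C3 lay above it by 1.53 (0.00434) and 1.61 (0.000527). The values of IL8 were 2.73 (0.00152) and 3.59 (2.21e-05), but IL8 was not well above background in NT, C3/C2 or SN. RELB and TRIB2 lay under the sum with SN, at −1.15 (8.86e-07) and −1.01 (1.61e-05).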

How the results depend on the processing

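In TRAIL+SN against SN, 188 genes were called higher and 34 lower. The counts were 71 and 0 with normexp, 445 and 57 without a filter on dim probes, 94 and 0 with genes well above background on all 24 arrays, and 2520 and 1622 without a minimum fold change; 64 were lower with quantile normalization. Of the 7 genes 3 were called higher, and 1 of the 3 still tested with the filter on all 24 arrays. Leaving out each array in turn gave 162 to 212 genes higher, 28 to 42 lower, 3 to 3 of the 7, and 17 to 19, 20 to 21 and 20 to 21 of the NF-κB list for TRAIL, TRAIL+C3/C2 and TRAIL+SN.

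LTB in TRAIL+SN against SN fell under the fold of 2 with normexp (0.81). The ICAM4 departures turned to 0.966 with C3/C2 and 0.876 with SN on the linear scale, and that with SN to 0.15 with normexp. Normexp with an offset shrinks differences of dim probes by construction: TRAIL minus NT became 3.71 for UBD and 1.54 for ITGAM, and SN minus NT of LTB −0.11 in place of −1.35. With it, TRAIL+SN minus SN was 0.50 for UBD and 0.26 for ITGAM (limma adjusted p = 0.000802 and 0.00278), both under the fold of 2. Centring arrays on their median moved the median of all genes for TRAIL minus NT from 0.03 to 0.13.

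With the replicate number as a block, 194 genes were higher, 36 lower and 3 of the 7 genes higher. Deviations of same-numbered arrays correlated at 0.0619 to 0.475 (median 0.199, 57 of 60 pairs over 0.1), so 3 pairs missed the limit of 0.1 for treating the numbers as pairs. That 21 of 24 arrays correlated best with their own number is a hint from the data, not the design, that numbers share an experiment. With slide as a random block (consensus correlation 0.0255), 179 genes were higher and 31 lower. This block cannot separate slide from treatment, since all SN arrays were on slide 3 and all TRAIL+SN arrays on slide 4. Only NT and C3/C2 were spread over more than 1 slide, so the correlation rests on them.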
